A study of Mus musculus with 8 samples.

Results

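The integrin subunits described here are 10 genes, 7 alpha subunits (Itga1, Itga3, Itga5, Itga6, Itga8, Itga9 and Itgav) and 3 beta subunits (Itgb1, Itgb3 and Itgb5). They were taken by symbol from the 24421 genes of the count tables, which list 27 integrin subunits in all. Gene-level read counts came from R1 cells, a line of mouse embryonic stem cells (ESCs), in 8 Oxford Nanopore Technologies (ONT) libraries. The states were Undiff, cells without retinoic acid (RA), and Day4, embryoid bodies grown for 4 days without leukaemia inhibitory factor and then exposed to RA for 4 days. The dose was 2 µM in the design text and in the study's methods, while a treatment label gives the same figure in mM. The methods describe Undiff as cells kept with leukaemia inhibitory factor, and the labels describe the tissue of every library as embryoid bodies. By the methods, Day4 and Undiff thus differ in RA, in leukaemia inhibitory factor, in time and possibly in culture form. These differences cannot be told apart. Each state was sequenced with the Direct RNA kit, where the native RNA strand passes the pore (500 ng of polyadenylated RNA), and with the cDNA kit, where RNA is copied and amplified first (50 ng). Each kit and state had 2 replicates, which the methods describe as cultures grown and treated separately, and by its account both kits drew on RNA of the same duplicate cultures.

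Integrins are adhesion receptors of the cell surface made of 1 alpha and 1 beta subunit. The beta1 subunit pairs with many alpha subunits, and the alpha subunit largely sets which matrix protein is bound. Receptors with alpha3 or alpha6 bind laminins, those with alpha5, alpha8 or alphav bind proteins with the RGD motif such as fibronectin and vitronectin, and alpha1 forms a collagen receptor. In ESCs integrins hold the cells to laminin and fibronectin, and in embryoid bodies they act as the basement membrane forms.

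The Direct RNA libraries held between 283461 and 907489 reads on genes and the cDNA libraries between 948657 and 2088592. Levels are given as CPM, reads of a gene per 1e6 reads on genes. A single read was worth 1.10 to 3.53 CPM with Direct RNA and 0.479 to 1.05 CPM with cDNA. All 6 ESC markers (Pou5f1, Nanog, Sox2, Klf4, Zfp42 and Esrrb) were called lower at Day4 on both platforms. All 6 RA response markers were called higher at Day4 in cDNA, and 5 of them in Direct RNA. At these depths the subunits are thinly covered. Only 6 of the 10 had a read in every library, and 1 of them, Itgb1, had at least 10 reads in every library.

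Itgb1 encodes beta1, the shared partner of most alpha subunits listed here. Its level in Direct RNA was 215 and 120 CPM in the Undiff replicates and 550 and 334 CPM in the Day4 replicates. In cDNA it was 84.3 and 32.6 CPM in Undiff and 127 and 115 CPM at Day4. On both platforms each Day4 library lay above each Undiff library, and the Undiff replicates of cDNA lay farther apart than the Day4 ones. States without overlap were common over all genes. Among genes with at least 5 reads on average, 36.9% of 9964 in Direct RNA lay higher at Day4 without overlap and 30.4% lower. In cDNA the shares were 44.1% and 22.2% of 10578 genes. Counted without that limit on reads, the states did not overlap for 7 of the subunits on each platform. Itga8 on both platforms and Itga1 in cDNA were among these 7 but below the limit. Lack of overlap alone is therefore weak evidence of a change, here or for any gene below. In Direct RNA Itgb1 rose by a log2 fold change of 1.29 ± 0.39 (SE, n = 2 a state), with an adjusted p of 0.011 in DESeq2. In cDNA the DESeq2 log2 fold change was 0.70 ± 0.53, with an adjusted p of 0.55. The term for a difference between these changes was -0.61 ± 0.72 (adjusted p = 0.9999, DESeq2), so the data do not show that the platforms differ in it. The Direct RNA call was lost without Undiff replicate 1 (DESeq2 adjusted p = 0.0696), without Undiff replicate 2 (adjusted p = 0.729) and without Day4 replicate 1 (adjusted p = 0.387), while the log2 fold change remained at or above 0.90. In bulk RNA a change in the number of cells of a type and a change in the RNA per cell cannot be told apart, here or for any subunit below.

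Itgb1 lies on chromosome 8 (128685654 to 128733200, plus strand, GRCm38), and its longest annotated transcript has 16 exons and 3815 bases. Itgb5 lies on chromosome 16 (33829665 to 33949338, plus strand), and its longest transcript has 15 exons and 3282 bases. The 250 bases before the RefSeq start of both genes (GRCm38.p6, plus strand) are shown because these beta subunits had the highest levels per length in Direct RNA Day4. Capitals mark the letters GGGCGG on either strand (GC boxes), chr8:128685404-128685653 for Itgb1 and chr16:33829415-33829664 for Itgb5.
Itgb1: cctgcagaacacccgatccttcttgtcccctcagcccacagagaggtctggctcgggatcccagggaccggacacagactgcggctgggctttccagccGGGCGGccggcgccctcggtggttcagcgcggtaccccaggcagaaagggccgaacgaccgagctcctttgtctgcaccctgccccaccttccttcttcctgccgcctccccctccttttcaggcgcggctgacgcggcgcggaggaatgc
Itgb5: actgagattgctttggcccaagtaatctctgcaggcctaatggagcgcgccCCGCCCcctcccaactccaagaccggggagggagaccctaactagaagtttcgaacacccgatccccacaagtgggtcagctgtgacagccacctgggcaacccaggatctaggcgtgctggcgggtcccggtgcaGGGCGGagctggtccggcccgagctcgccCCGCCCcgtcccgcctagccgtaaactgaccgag
The Itgb1 window held 1 GC box and the Itgb5 window 3, and 32.7% of the 32851 mouse windows of this length held at least 1. Their GC contents were 68.0% and 65.2%, against a median of 52.4%. Neither held AGGTCA, the half-site of nuclear receptors such as the RA receptors, which 14.0% of all windows held on either strand. Among the other subunits, RefSeq windows were found for Itga1, Itga3, Itga5, Itga8, Itga9 and Itgav, and none of them held AGGTCA either. The Itga9 window (chr9:118711442-118711691, plus strand) lies inside the gene, whose annotated start is 118606690, so the bases before that start were not searched.

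Itgb5 encodes beta5, which pairs with alphav in a vitronectin receptor. In Direct RNA its level was 45.9 and 47.4 CPM in Undiff and 109 and 118 CPM at Day4. In cDNA it was 7.38 and 6.70 CPM in Undiff and 5.31 and 8.66 CPM at Day4. The Direct RNA states were well apart, while the cDNA states overlapped. The log2 fold change was 1.14 ± 0.52 in Direct RNA (adjusted p = 0.16, DESeq2) and -0.31 ± 0.93 in cDNA (adjusted p = 0.94). Itgb5 had the lowest unadjusted p of the subunits for a difference between platforms in the change (0.099), and its adjusted p was 0.9999 in DESeq2.

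Itgb3 encodes beta3, the other vitronectin receptor partner of alphav and the platelet partner of alphaIIb. It had 3 reads in each Undiff library of Direct RNA, against 11 and 13 at Day4. In cDNA it had 0 and 1 reads in Undiff and 4 and 15 at Day4. Every Day4 library was above every Undiff library of its platform. The log2 fold change in Direct RNA was 1.90 ± 1.01 (adjusted p = 0.27, DESeq2). In cDNA the mean normalized count was below 5, the minimum for a call, and the ratio of the summed reads per depth was 17.0 with a counting interval of 2.70 to 706 (95%, exact). Itga2b, which encodes alphaIIb and is outside the 10 genes, had 2 and 2 reads in Undiff and 12 and 9 at Day4 in Direct RNA, and 8, 4, 11 and 18 reads in the same order in cDNA (adjusted p = 0.18 and 0.93, DESeq2).

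**Figure D1:**
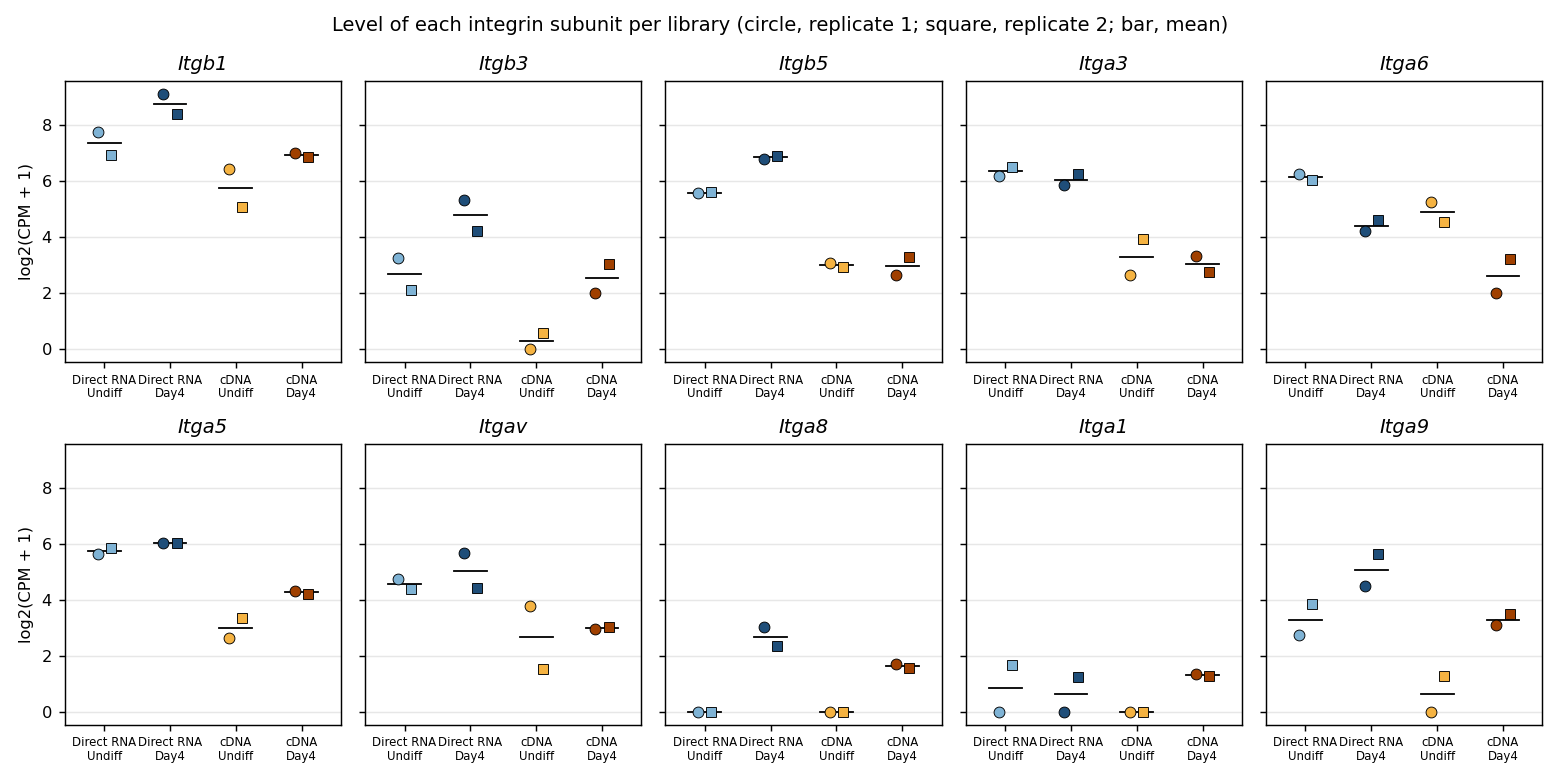
Level of each subunit in the 8 libraries as log2(CPM + 1), with circles for replicate 1, squares for replicate 2 and a bar for the mean of the log2 values. Itga6 lay lower at Day4 on both platforms, Itgb1 lay higher, and Itga8 had no read in any Undiff library.

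Itga6 and Itga3 encode the laminin-binding alpha subunits, and alpha6 is a widely used surface marker of stem cells. In Direct RNA Itga6 stood at 74.6 and 65.0 CPM in Undiff and at 17.6 and 23.0 CPM at Day4. In cDNA it stood at 36.9 and 22.0 CPM in Undiff and at 3.03 and 8.18 CPM at Day4. The states did not overlap on either platform. In cDNA Itga6 fell, with a log2 fold change of -2.55 ± 0.73 and an adjusted p of 0.0074 in DESeq2. In Direct RNA the DESeq2 log2 fold change was -1.74 ± 0.67 with an adjusted p of 0.072, past the threshold in edgeR (adjusted p = 0.0011) and when only genes with at least 10 reads were fitted (DESeq2 adjusted p = 0.043). The cDNA call was lost without either Undiff replicate and without either Day4 replicate. Over these and the other alternative fits, the log2 fold change in cDNA lay between -3.01 and -1.97.

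Itga3 stood at 71.7 and 89.3 CPM in Undiff and at 56.4 and 74.6 CPM at Day4 in Direct RNA. In cDNA it stood at 5.27 and 14.4 CPM in Undiff and at 9.10 and 5.78 CPM at Day4. The states overlapped on both platforms, unlike those of Itga6. The log2 fold changes were -0.38 ± 0.54 in Direct RNA and -0.66 ± 0.90 in cDNA (adjusted p = 0.86 and 0.85, DESeq2).

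Itga5 encodes the alpha subunit of the main fibronectin receptor. It stood at 48.8 and 56.2 CPM in Undiff and at 63.5 and 63.7 CPM at Day4 in Direct RNA. In cDNA it stood at 5.27 and 9.10 CPM in Undiff and at 19.0 and 17.3 CPM at Day4. The Day4 libraries were the higher ones on both platforms, by little in Direct RNA. The log2 fold changes were 0.15 ± 0.58 and 0.93 ± 0.79, with adjusted p of 0.93 and 0.63 in DESeq2.

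Itgav encodes alphav, the partner of beta1, beta3 and beta5. Its levels in Direct RNA were 25.8 and 19.8 CPM in Undiff and 49.4 and 20.3 CPM at Day4, and in cDNA 12.6 and 1.92 CPM in Undiff and 6.83 and 7.22 CPM at Day4. The states overlapped on both platforms, and the Undiff replicates of cDNA, with 12 and 4 reads, differed by the largest ratio. The log2 fold changes were 0.43 ± 0.80 and -0.31 ± 1.00 (adjusted p = 0.91 and 0.95, DESeq2). An exon of Itgav overlaps the gene Gm13684 on the opposite strand, and the cDNA counting was not stated to use strand, so the cDNA reads of the 2 genes may not be told apart.

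Itga9 encodes alpha9, a partner of beta1 that binds tenascin C and osteopontin among others. It had 2 and 12 reads in Undiff and 6 and 36 at Day4 in Direct RNA, which is 5.74 and 13.2 CPM against 21.2 and 48.8 CPM. In cDNA it had 0 and 3 reads in Undiff and 10 and 21 at Day4. All Day4 libraries lay above the Undiff libraries of their platform once depth was taken into account. The log2 fold changes were 1.54 ± 0.91 in Direct RNA and 2.47 ± 1.21 in cDNA (adjusted p = 0.35 and 0.21, DESeq2), and edgeR put both past the threshold (adjusted p = 0.015 and 0.0082).

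Itga8, an RGD-binding partner of beta1, had no read in any of the 4 Undiff libraries. At Day4 it had 2 and 3 reads in Direct RNA and 3 and 4 reads in cDNA. No reads in a library allow up to 3, which corresponds to between 1.44 and 8.61 CPM in the Undiff libraries, so a fold above the floor could not be given. An exon of Itga8 overlaps a gene on the opposite strand, E030013I19Rik. Itga1, the collagen-binding subunit, had 0, 2, 0 and 1 reads in Direct RNA and 0, 0, 2 and 3 reads in cDNA, in the order Undiff and then Day4. Both genes were below the mean normalized count of 5 and could not be called, and Itga1 shares exon sequence with Gm49395 on its own strand.

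In all, 1 of the 10 subunits was called in Direct RNA, Itgb1 higher at Day4, where 9.54% of the 9646 genes tested were called higher and 7.67% lower. In cDNA 1 was called, Itga6 lower at Day4, where 8.69% of the 10271 genes tested were called higher and 9.24% lower. To be called, a gene needed an adjusted p no higher than 0.05 in DESeq2, a log2 fold change of 1 or more up or down, and 5 or more normalized reads on average. The last of these was met by 8 subunits in Direct RNA and by 7 in cDNA. These counts are near what the background gives for a list of this size. The median log2 fold change of the subunits with such a mean was 0.78 in Direct RNA, where that of all genes tested was 0.03. In cDNA it was -0.31, where that of all genes tested was 0.0019. The cDNA median leaves out Itgb3, which had a log2 fold change of 2.55 ± 1.42 there. The 2 medians are therefore not over the same subunits, and their signs cannot be compared. edgeR called 5 subunits in Direct RNA (Itgb1, Itgb3, Itgb5 and Itga9 higher, Itga6 lower) and 2 in cDNA (Itga9 higher, Itga6 lower). Its backgrounds were also larger. edgeR called 18.7% of genes higher and 15.1% lower with Direct RNA, and 17.0% higher and 15.6% lower with cDNA. None of the 10 was called for a change that differed between platforms, a test in which DESeq2 called 0.0116% of the 17267 genes. None of the 10 had an unadjusted p of at most 0.05 in that test in DESeq2, and edgeR called none of them either.

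**Figure D2:**
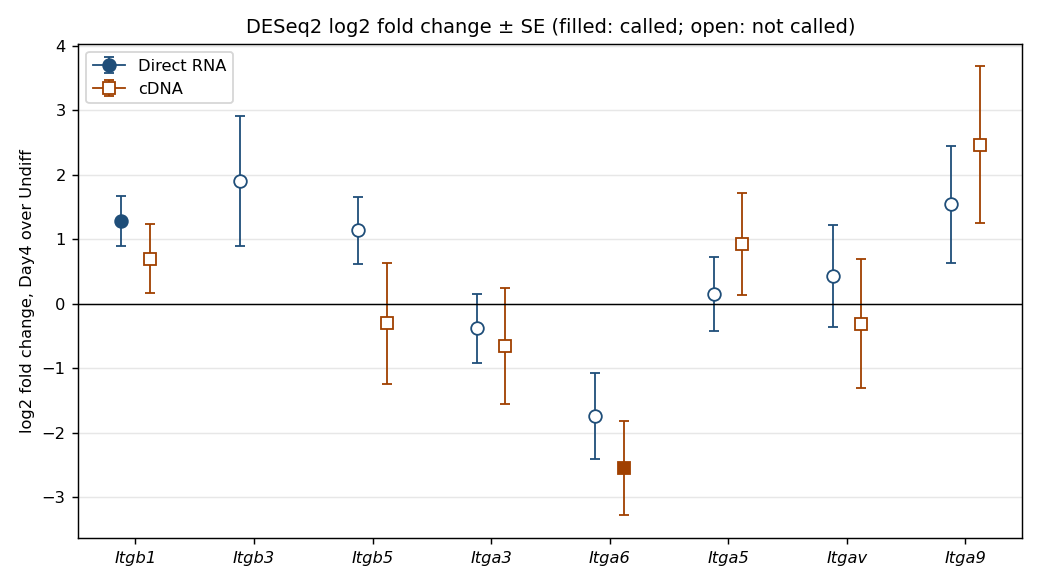
DESeq2 log2 fold change of Day4 over Undiff, with SE bars, for the subunits with a mean normalized count of at least 5, circles for Direct RNA and squares for cDNA. Filled symbols are called, Itgb1 at 1.29 in Direct RNA and Itga6 at -2.55 in cDNA. Itgb3 has no cDNA point because its mean was below 5.

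The make-up of the integrin reads within a library does not depend on how libraries are scaled against each other. Beta subunits took 54.3% (95% Wilson interval 46.9 to 61.6) and 41.0% (36.2 to 46.0) of the 10 genes' reads in the Direct RNA Undiff replicates, and 76.4% (70.9 to 81.2) and 66.5% (62.4 to 70.5) in the Day4 replicates. In cDNA they took 60.4% (52.3 to 68.0) and 44.9% (37.9 to 52.1) in Undiff, and 73.3% (67.4 to 78.4) and 71.6% (66.8 to 75.9) at Day4. On both platforms the shares of the Day4 libraries lay above those of the Undiff libraries, but 2 libraries a state allow no exact test to reach the threshold, and intervals cover counting error only. Itga6 took 15.0% and 15.6% of the reads in Undiff and 1.93% and 3.27% at Day4 in Direct RNA, and 24.3% and 24.9% against 1.65% and 4.47% in cDNA. Its Undiff shares were close together within each platform, although the Undiff cDNA levels in CPM were not.

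**Figure D3:**
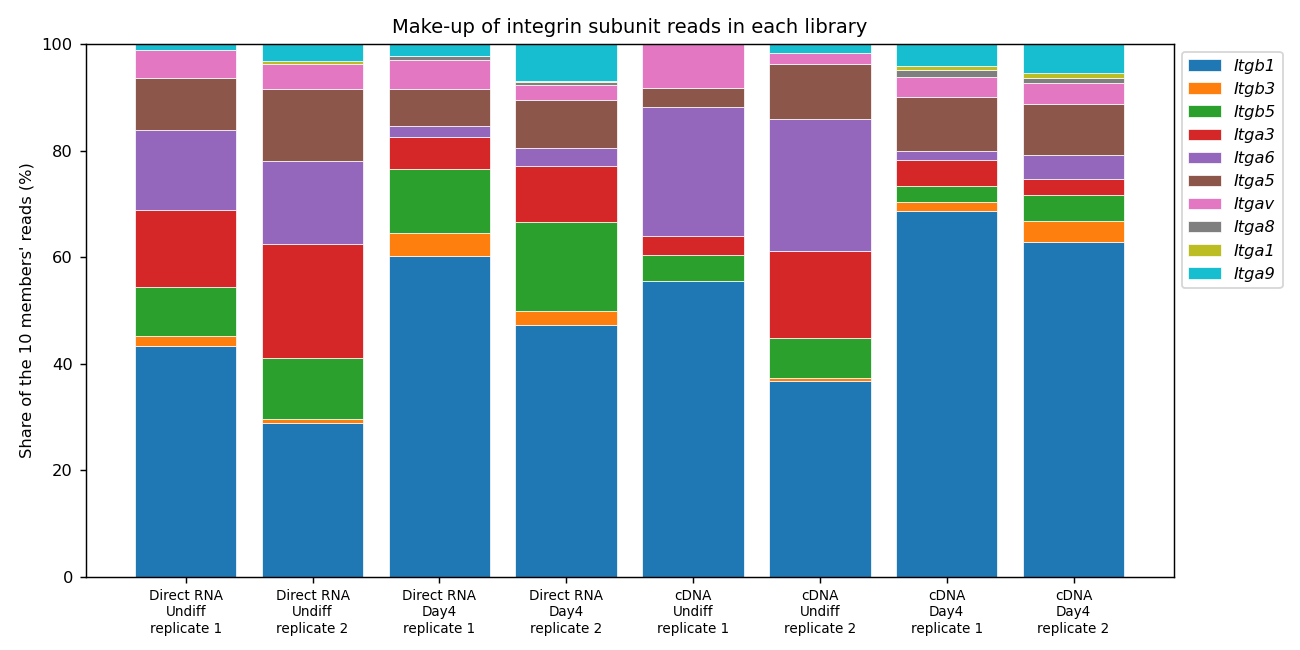
Share of the 10 subunits' reads taken by each subunit, in percent, as stacked bars for the 8 libraries, with beta subunits at the bottom. Itga6 took between 15.0% and 24.9% in the Undiff libraries and between 1.65% and 4.47% in the Day4 libraries.

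Within the alpha subunits, the laminin-binding pair Itga3 and Itga6 took 63.7% ± 1.26 (SD, n = 2) of the alpha reads in Direct RNA Undiff and 37.9% ± 4.92 at Day4. In cDNA the pair took 72.3% ± 3.06 in Undiff and 25.7% ± 1.58 at Day4. The RGD-binding group of Itga5, Itga8 and Itgav took 31.9% ± 1.39 of the alpha reads in Undiff and 46.5% ± 13.0 at Day4 with Direct RNA. With cDNA it took 26.2% ± 5.14 in Undiff and 53.9% ± 4.24 at Day4. The laminin-binding share was lower in each Day4 library than in each Undiff library of its platform, and the RGD-binding share was higher in each. These shares add up to a whole, so fewer Itga6 reads alone would raise the RGD-binding share. Shares without Itga6 were not computed, and the states of Itga3 overlapped. In CPM the RGD-binding group stood at 75.3 ± 1.00 (SD, n = 2) in Undiff and 104 ± 22.5 at Day4 in Direct RNA. In cDNA it stood at 14.5 ± 4.88 CPM in Undiff and 27.3 ± 1.13 CPM at Day4. There were 0.949 and 0.489 Itgb1 reads for each alpha read in Direct RNA Undiff and 2.56 and 1.41 at Day4, and 1.40 and 0.667 against 2.57 and 2.21 in cDNA.

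Per length, Itgb1 was the highest of the 10 in all 4 groups, with means of 44.0, 116, 15.3 and 31.7 CPM per kilobase of the longest transcript in Direct RNA Undiff, Direct RNA Day4, cDNA Undiff and cDNA Day4. In cDNA Undiff its range overlapped that of the next, Itga6 (6.84 CPM per kilobase), and in the other groups it did not overlap the next. In Direct RNA Undiff the next 4 were Itga3 at 16.6, Itga6 at 16.2, Itgb5 at 14.2 and Itga5 at 11.9 CPM per kilobase, of which only Itga3 and Itga6 overlapped. In Direct RNA Day4 Itgb5 was second at 34.6 CPM per kilobase, clear of Itga5 at 14.4 and Itga3 at 13.5, which overlapped. Itga9, Itgav, Itgb3 and Itga6 followed between 4.98 and 4.72 CPM per kilobase and each overlapped its neighbour. In cDNA Day4 Itga5 was second at 4.11, clear of Itgb5 at 2.13 CPM per kilobase. The 3 genes whose log2(CPM + 1) was most like that of Itgb1 over the 8 libraries were Siah1a, Fto and Arl2bp (Pearson r of 0.985, 0.983 and 0.982), compared over 3566 genes that all 8 libraries covered with 10 reads or more, a description over libraries that share the difference between platforms.

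Between platforms, at equal state, the subunits took a smaller part of the cDNA libraries. DESeq2 with state as a covariate called 5 of the 10 lower in cDNA and none higher, where 26.6% of the 10426 genes tested were called lower and 24.7% higher. Itgb5 differed most, with a log2 difference of -2.63 ± 0.40 (adjusted p = 6.5e-10), followed by Itga3 at -2.28 ± 0.38 (adjusted p = 2.9e-08), both by DESeq2. Itgb3 (-1.88 ± 0.69), Itga9 (-1.69 ± 0.59) and Itga5 (-1.51 ± 0.35) were also called. Itgb1 (-0.89 ± 0.36), Itgav (-1.16 ± 0.57) and Itga6 (-0.70 ± 0.41) were not called, Itgb1 for the size of its difference (DESeq2 adjusted p = 0.040). Leaving out 1 library gave between 3 and 7 calls, with 3 (Itga3, Itga5 and Itgb5) without cDNA Undiff replicate 2. Itga9 was lost without Direct RNA Undiff replicate 2 (DESeq2 adjusted p = 0.106), Direct RNA Day4 replicate 2 (0.170) or cDNA Undiff replicate 2 (0.0505). Itgb3 was lost without Direct RNA Undiff replicate 1 (0.0582), Direct RNA Day4 replicate 1 (0.150), cDNA Undiff replicate 2 (0.0644) or cDNA Day4 replicate 1 (0.0836). Itgb1 was gained without Direct RNA Undiff replicate 2 (0.0189) or cDNA Undiff replicate 1 (9.5e-05), and Itgav without the latter (0.0037).

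The subunits are long transcripts, and length moved with the platform difference over all genes. The 8 subunits tested have longest transcripts of 3282 to 7054 bases. Over the 5255 genes tested with transcripts of at least 3282 bases, the median log2 difference was -0.55 and 34.9% were called lower in cDNA, against 0.52 and 18.2% over the 5142 genes with shorter transcripts. The median over the 8 subunits was -1.60. The part of length in the subunits' platform difference was not tested, and among the subunits the shortest, Itgb5, had the lowest value.

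**Figure D4:**
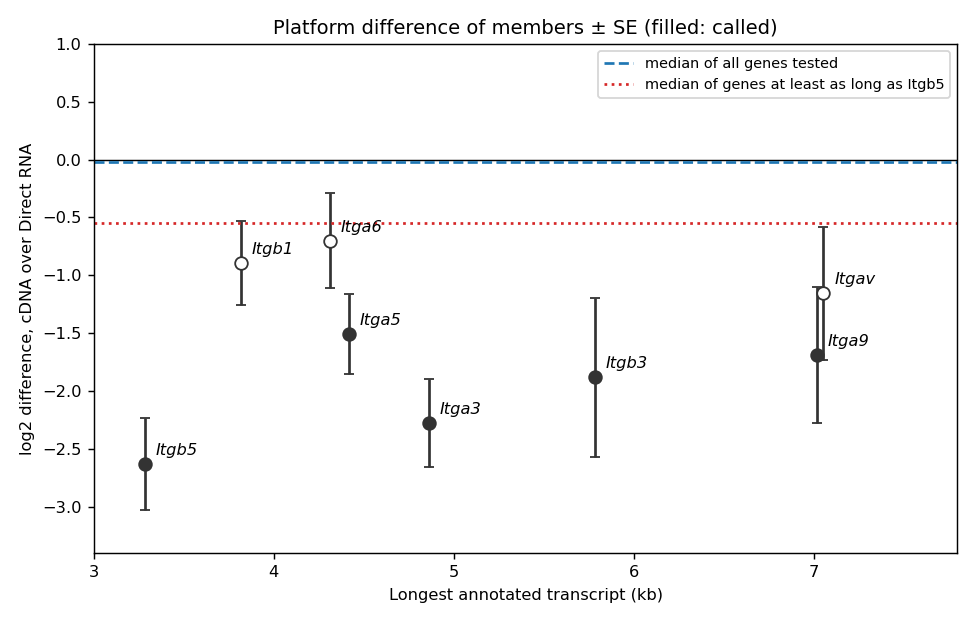
DESeq2 log2 difference of cDNA over Direct RNA, with SE bars, against the longest annotated transcript in kilobases for the 8 subunits tested, filled where called. All 8 lie below the median of genes at least as long as Itgb5 (dotted, -0.55) and below the median of all genes (dashed, -0.02).

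Of the 17 integrin subunits outside the 10, none was called higher and 1 was called lower on each platform, of 2 with a mean of at least 5 in Direct RNA and 3 in cDNA. Over all genes tested 7.67% were called lower in Direct RNA and 9.24% in cDNA, and so few subunits cannot be set against these shares. A total of 3 (Itgad, Itgb2l and Itgb6) had no read in any library. Itgb7, the beta subunit of leukocyte receptors, had 11 and 23 reads in Undiff and 0 and 1 at Day4 in Direct RNA, and 11 and 15 against 2 and 4 in cDNA. It fell in Direct RNA (log2 fold change -3.77 ± 1.19, adjusted p = 0.018, DESeq2), and its value in cDNA was -2.40 ± 1.04 (adjusted p = 0.13). Itgae, the partner of beta7 that binds E-cadherin, had 5 and 9 reads against 0 and 2 in Direct RNA and 16 and 22 against 1 and 4 in cDNA. It fell in cDNA (-3.20 ± 0.99, adjusted p = 0.015, DESeq2), and its Direct RNA mean was below 5. Both partners were thus lower in every Day4 library of both platforms. Itga2, Itgb8 and Itgax had no read in any Undiff library, and between 1 and 7 reads in each Day4 library.

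Among 22 ligands of integrins, 6 were called higher and 2 lower in Direct RNA, of 19 with a mean of at least 5. In cDNA 3 were called higher and 1 lower, of 16. Over all genes tested 9.54% were called higher and 7.67% lower in Direct RNA, and 8.69% higher and 9.24% lower with cDNA. The median log2 fold changes of the ligands were 1.04 and 0.83, each to be read beside the medians of all genes given above. Col1a2 and Col1a1, the chains of type I collagen, and Edil3, an RGD protein, rose on both platforms, Col1a2 by 6.42 ± 1.28 and 6.75 ± 1.16, Edil3 by 5.61 ± 1.02 and 5.00 ± 1.28, and Col1a1 by 5.59 ± 1.00 and 3.62 ± 1.09 on the log2 scale. Col1a2 had no read in any Undiff library. Edil3 had none in the cDNA Undiff libraries or in Direct RNA Undiff replicate 1. The sizes of their changes are therefore values of the model and not measured folds. Spp1, which encodes osteopontin, fell on both platforms, with log2 fold changes of -5.59 ± 0.55 and -5.57 ± 0.44 in Direct RNA and cDNA. Between platforms 12 of 18 ligands with such a mean were called lower in cDNA and 1 higher, where 26.6% of all genes tested, and 34.9% of those with transcripts of at least 3282 bases, were called lower and 24.7% of all genes higher.

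Of 25 intracellular adaptors and kinases, 3 were called higher and 1 lower in Direct RNA, of 22 with a mean of at least 5. In cDNA 2 were called higher and 1 lower, of 21. These counts are near the shares over all genes given for the ligands. The median log2 fold changes were 0.39 and 0.07. Parva, which encodes alpha-parvin of the complex with integrin-linked kinase, rose by 2.88 ± 0.62 and 3.34 ± 0.65, and Zyx, which encodes zyxin of focal adhesions, by 2.27 ± 0.54 and 2.51 ± 0.69 on the log2 scale in Direct RNA and cDNA. Of the 6 membrane partners, 1 was called higher and 1 lower in Direct RNA, and 2 higher and 1 lower in cDNA, with median log2 fold changes of 0.79 and 0.72. These 6 genes are too few to set the counts against the shares over all genes given for the ligands. The tetraspanin Cd82 rose on both platforms (4.16 ± 1.31 and 3.98 ± 0.79), and the tetraspanin Cd9 fell on both (-2.17 ± 0.37 and -1.88 ± 0.39). Cd82 had no read in either Direct RNA Undiff library, so the size of its change there is not a measured fold.

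Markers of other cells that embryoid bodies can hold were summed in each library. The summed level of 5 blood and platelet markers was between 5.51 and 11.5 CPM in Direct RNA Undiff and between 649 and 1640 CPM at Day4, and between 2.11 and 3.35 against 455 and 2632 CPM in cDNA. Of these 5, Hbb-y, Hba-x and Pf4 were at 0 in all Undiff libraries and Ptprc, the marker of white blood cells, in all 8 libraries. Gata1 alone had reads in Undiff, with log2 fold changes of -0.54 in Direct RNA and 0.35 in cDNA. The sum thus rose through Hbb-y, Hba-x and Pf4. The sum of 5 endothelial markers was between 70.5 and 121 CPM in Direct RNA Undiff and between 102 and 167 CPM at Day4, and between 32.7 and 35.4 against 72.1 and 85.7 CPM in cDNA, with Cdh5 and Emcn at 0 in all Undiff libraries. The endothelial sums of the states overlapped in Direct RNA, and Pecam1 had log2 fold changes of -1.29 in Direct RNA and -0.77 in cDNA. The sum of 6 smooth muscle and mesenchyme markers was between 37.3 and 121 CPM in Direct RNA Undiff. At Day4 it was between 236 and 243 CPM, and in cDNA between 12.6 and 45.0 against 133 and 144 CPM. Myh11 was at 0 in 7 of the 8 libraries, and Tagln had log2 fold changes of -1.19 and -2.02. Those of Cnn1 were -1.24 in Direct RNA and 0.08 in cDNA. The sum of 5 visceral endoderm markers was between 3.31 and 5.74 against 159 and 212 CPM in Direct RNA, and between 0 and 7.38 against 155 and 167 CPM in cDNA, with Afp and Ttr at 0 in all Undiff libraries. The sum of 5 neuronal markers was lower at Day4, between 617 and 628 against 33.9 and 45.9 CPM in Direct RNA and between 625 and 783 against 42.4 and 54.6 CPM in cDNA. Of these 5, only 2 (Stmn2 and Tubb3) had a mean of at least 5, and both were called lower on both platforms. Dcx, thinly covered, went the other way, at 0 in all Undiff libraries and with log2 fold changes of 0.41 and 1.93. Whether the markers stood for such cells here, and the part of such cells in the levels of the integrin subunits, was not tested.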

How the data were processed

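The authors deposited raw counts of reads for each gene symbol, with no normalization applied. Per the study's methods, reads were aligned to mm10 with minimap2 without secondary alignments and counted with htseq-count and the iGenomes annotation, by strand for Direct RNA. For cDNA the strand setting was not given in the sources used here. The 5 counters of unassigned reads (38.1% to 61.7% of each file's total) entered no library size or test. The 10 genes and all gene lists were chosen with earlier results of these data known. All 10 genes were named, and other lists were given by counts, naming up to 3 genes a direction called on both platforms, except that any other integrin subunit with a read could be named. DESeq2 1.42.0 (R 4.3.3, Wald test, shrunken fold changes, no Cook's cutoff or independent filtering) was fitted over all genes, with Benjamini-Hochberg adjustment. The quasi-likelihood test of edgeR 4.0.16, TMM factors, other filters, a replicate block and leaving out each library were alternatives. Fits were tested on simulated data. CPM used reads on genes. Coordinates and lengths came from GENCODE vM21 (GRCm38) and promoter windows from RefSeq. Wilson intervals (95%) and floors of 3 reads cover counting error only.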

Additional observations from a re-analysis of the deposited data

How the results depend on the processing

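edgeR called 5 subunits in Direct RNA, 2 in cDNA and 6 between platforms, these 6 all lower in cDNA. Between platforms it called 2894 of the 10426 genes tested lower in cDNA and 2957 higher. The filter on low counts gave 2 in Direct RNA. The replicate block left 1 call in Direct RNA and 0 in cDNA, where Itga6 had a log2 fold change of -2.46 and a DESeq2 adjusted p of 0.0600, and left the platform calls at 5. The numbers share only 2 pairs within a platform (correlation of replicate deviations 0.214 in Direct RNA and 0.500 in cDNA), so the block is no evidence of pairing. Across platforms the correlation was 0.124 in Undiff and -0.416 at Day4. A block with crossed Day4 numbers, chosen after seeing the data, gave 5 platform calls and 0 calls for platform by state. Leaving out 1 library gave between 0 and 1 calls in Direct RNA, 0 in cDNA, between 3 and 7 between platforms and 0 for platform by state. Over all 27 subunits the beta share in cDNA Day4 was 67.0%, against 72.4%. Directions turned when 1 library was left out for uncalled values only. Over all the alternatives, the Direct RNA log2 fold changes ranged from -0.054 to 0.26 for Itga5 and from -0.15 to 0.86 for Itgav. Those in cDNA ranged from -1.12 to 0.077 for Itga3 and from -1.08 to 1.20 for Itgav. The platform by state terms ranged from -0.89 to 0.39 for Itga3, from -1.81 to 1.17 for Itgav and from -1.27 to 0.36 for Itgb1. TMM factors, no shrinkage, and Cook's cutoff with independent filtering kept every count of calls, the latter 2 not run for platform by state. Ranking by CPM without length moved between 2 and 4 subunits a group and left Itgb1 first. The cause of these differences was not tested. Each group held 2 libraries, and no subunit other than Itgb1 had more than 87 reads in a library.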
